A study of Bos taurus with 60 samples.

Results

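The 4 miRNAs described here are bta-miR-142-3p, bta-miR-142-5p, bta-miR-150 and bta-miR-223, small regulatory RNAs best known from blood cells. They were chosen by name and make up 4 of the 608 mature miRNAs counted in intestinal tissue of cattle (Bos taurus). The 60 small RNA libraries came from duodenum, proximal jejunum and distal jejunum, which form the small intestine here, and from cecum, spiral colon and descending colon, which form the large intestine. In each region 5 libraries came from non-shedders, cattle negative for Escherichia coli O157 in feces, and 5 came from super-shedders, cattle that shed this bacterium in large numbers. The tissue pieces were snap-frozen, and the study compared the 2 shedding statuses. The sources used here do not state age, breed or diet. A title letter, A to E in non-shedders and F to J in super-shedders, was taken as the animal, an inference from its constant status. The p-values measure the spread between these libraries.

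MicroRNAs are cut from hairpin precursors, load into Argonaute proteins and lower the output of mRNAs that they pair with. miR-142 is made throughout the blood lineages and hardly in other cells, and both arms of its hairpin, 5p and 3p, can be loaded. miR-150 is abundant in mature B and T lymphocytes, and in mice it restrains the transcription factor Myb. miR-223 is a myeloid miRNA, richest in neutrophils and their precursors in mice and humans. The wall of the gut holds lymphocytes in the epithelium, the lamina propria and lymphoid follicles, together with macrophages, mast cells and granulocytes, so whole tissue contains these miRNAs without being blood. In such bulk samples, fewer cells of a type and less RNA per cell cannot be told apart.

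The deposited read counts summed to 535373 to 19346766 per library, with a median of 1735054. Every library held epithelial and muscle miRNAs, in unequal parts. The 9 listed epithelial miRNAs took from 0.154% to 35.6% of a library's counts, and the 5 smooth muscle miRNAs from 8.41% to 70.8%. A marker rule left 13 libraries outside. It asked for at least 50 CPM (counts relative to the library total, after TMM scaling for library composition) of miR-196b, made in the posterior gut, in large-intestine libraries and less in the small intestine. It also asked for at least 10000 CPM of the epithelial miR-192 and under 1000 CPM of the liver miRNA miR-122. In 11 of the 13 miR-196b went against the region label. The other 2 were the duodenum of letter I, with 9633 CPM of miR-122, and its descending colon, with 3197 CPM of miR-192. The 13 libraries include all 6 of letter I, 3 of letter H, 2 of letter B and 1 each of letters C and G. Results that rest on them are given with and without them.

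miR-142-5p was the most abundant of the 4 miRNAs, with a mean of 4964 CPM over the 60 libraries and rank 23 of 608. miR-142-3p followed with 599 CPM and rank 70, then miR-150 with 369 CPM and rank 85, and miR-223 with 112 CPM and rank 121. Together they took a median of 0.651% of a library's counts. That share ran from 0.0148% in the distal jejunum of letter I to 2.74% in the distal jejunum of letter G. All 4 were counted in every library, and each gene, MIR142, MIR150 and MIR223, matched the RefSeq gene table of assembly ARS-UCD2.0 by its name. The smallest count was 7 for miR-223, in the descending colon of letter I, with a 95% exact Poisson interval of 2.81 to 14.4. The smallest counts of the others were 43 for miR-142-3p, 57 for miR-150 and 804 for miR-142-5p. Such intervals cover counting error only. The highest and lowest libraries differed 77.6-fold for miR-142-3p, 39.3-fold for miR-142-5p, 46.3-fold for miR-150 and 112-fold for miR-223.

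**Figure D1:**
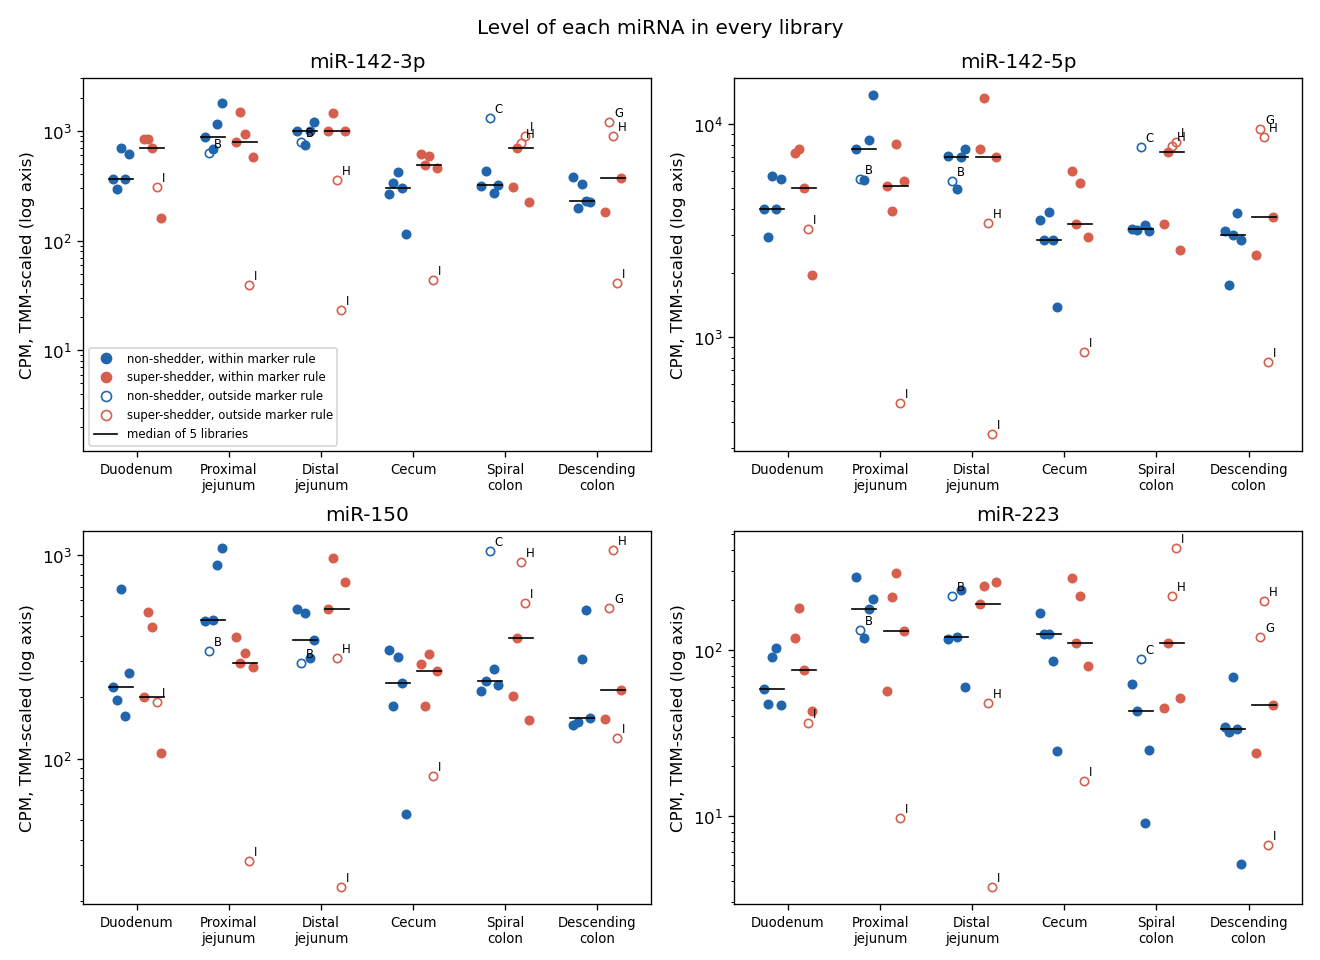
Level of each miRNA in every library, as TMM-scaled CPM on a log axis, by region and shedding status; each point is 1 library, bars are medians of 5, and open lettered points are the 13 libraries outside the marker rule. Letter I is lowest in both parts of the jejunum, while the open points of letters C, G, H and I in the colon lie at or near the top of their groups, except letter I in the descending colon.

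By median over 10 libraries, the jejunum stood highest and the descending colon lowest for all 4 miRNAs. For miR-142-3p the medians fell in the order distal jejunum at 990.4 CPM, proximal jejunum at 838, duodenum at 488, cecum at 378.4, spiral colon at 378.1 and descending colon at 281. The corresponding means were 854 ± 408, 898 ± 497, 517 ± 246, 364 ± 189, 556 ± 358 and 407 ± 362 CPM (SD, n = 10), so the spread within a region was of the size of most steps between regions. miR-142-5p had its highest median in the distal jejunum, 7026 CPM with a range of 348 to 13309, and its lowest in the descending colon, 3074 CPM with a range of 767 to 9473. miR-150 ran from 451 CPM in the distal jejunum, with a range of 23.3 to 969, to 188 CPM in the descending colon, with a range of 126 to 1057. miR-223 ran from 154 CPM in both the distal and the proximal jejunum to 33.8 CPM in the descending colon, where the range was 5.12 to 197.

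The cecum took a different place in the order by median. The cecal medians of miR-223 and miR-150, 118 and 252 CPM, lay above their duodenal medians of 66.7 and 212 CPM, whereas the cecal medians of miR-142-3p and miR-142-5p lay below the duodenal ones. For miR-150 this order flipped when libraries were scaled to total counts, with 228 CPM in the cecum and 249 CPM in the duodenum. The fitted changes from duodenum to cecum were 0.61 ± 0.53 (log2 fold change with standard error) for miR-223, -0.39 ± 0.44 for miR-150, -0.53 ± 0.47 for miR-142-3p and -0.53 ± 0.39 for miR-142-5p. None passed the adjusted p threshold of 0.05 (adjusted p from 0.410 to 0.611, edgeR quasi-likelihood test), and the fitted sign of miR-150 was opposite to that of its medians. Levels of different miRNAs in a small RNA library also depend on how well each sequence is captured, so the order among the 4 describes the libraries.

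In the test of any difference between the 6 regions, 0 of the 4 miRNAs passed, while 21.9% of the 288 miRNAs tested did. The adjusted p of edgeR was 0.0834 for miR-142-3p, 0.118 for miR-223, 0.235 for miR-142-5p and 0.360 for miR-150. Before adjustment, 2 of the 4, miR-142-3p and miR-223, were under 0.05, as were 39.6% of all miRNAs tested. With the letter as a block in the model, miR-142-3p passed (adjusted p = 0.0435 in edgeR), 1 of 4 beside 31.6% of all. Without letter I, 3 of the 4 passed beside 42.3% of all miRNAs tested, with miR-150 at an adjusted p of 0.169. Without the 13 libraries outside the marker rule, 4 of 4 passed beside 53.1% of all, with adjusted p from 6.08e-07 for miR-142-3p to 0.00129 for miR-150.

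Among the 15 pairs of regions, 1 test of a member passed, that of miR-223 between the descending colon and the proximal jejunum. Over all 15 pairs, 6.39% of the tests on all miRNAs passed. In the proximal jejunum miR-223 stood at 274, 131, 118, 176 and 203 CPM in non-shedders A to E and at 56.2, 209, 291, 9.72 and 130.4 CPM in super-shedders F to J. In the descending colon it stood at 34.3, 32.1, 68.8, 33.3 and 5.12 CPM in non-shedders and at 23.8, 119.7, 197, 6.68 and 46.4 CPM in super-shedders. The non-shedder groups did not overlap, with every jejunal value above every colonic one, and the super-shedder groups did. The change was -1.60 ± 0.55 on the log2 scale (adjusted p = 0.0432), in a comparison in which 6.94% of all miRNAs were lower.

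That call was lost when any of letters A, B, D, E, F, G or J was left out, so it sits at the threshold. With the letter as a block, 2 pairs passed for miR-142-3p and 2 for miR-223, beside 7.36% of all tests, and the change of miR-223 between descending colon and proximal jejunum was -1.79 ± 0.53 (adjusted p = 0.0229). Leaving out letter I gave 5 of 15 pairs for miR-142-3p, 4 for miR-142-5p, 1 for miR-150 and 4 for miR-223, beside 14.1% of all tests. Without the 13 libraries outside the marker rule the counts were 9, 8, 6 and 7 in the same order, beside 20.1% of all tests. In that fit the proximal and distal jejunum passed for 0 of the 4 (log2 fold changes of 0.0048 to 0.30, adjusted p = 0.997 for each), as did the spiral and descending colon (-0.46 to -0.12, adjusted p from 0.842 to 0.930). Between jejunum and duodenum, miR-142-3p was higher in the proximal jejunum by 0.91 ± 0.27 (adjusted p = 0.0164) and in the distal jejunum by 1.01 ± 0.28 (adjusted p = 0.00949). Against the duodenum, miR-223 also passed in the proximal jejunum at 1.10 ± 0.39 (adjusted p = 0.0477), which made 2 of 4 beside 10.7% of all miRNAs called higher. In the distal jejunum miR-142-5p also passed at 0.72 ± 0.25 (adjusted p = 0.0363), again 2 of 4, beside 9.71% of all. Between the descending colon and the cecum 1 of the 4 passed, miR-223 at -1.86 ± 0.47 (adjusted p = 0.0147), beside 0.971% of all called lower.

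Large and small intestine were then compared as the mean of 3 regions each, and miR-142-3p was the member that passed. In the small intestine of non-shedders miR-142-3p stood at 362, 296, 690.1, 366 and 611 CPM in the duodenum of letters A to E. It stood at 880, 622, 679, 1153 and 1808 CPM in their proximal jejunum. In their distal jejunum it stood at 997, 797, 747, 993 and 1210 CPM. The jejunal libraries of these 5 letters were thus all above 600 CPM, with the duodenum lower in 4 of the 5 than in either part of the jejunum.

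In the large intestine of non-shedders miR-142-3p stood at 268, 333, 424, 302 and 115 CPM in the cecum of letters A to E. In the spiral colon it stood at 312, 434, 1318, 269 and 322 CPM. In the descending colon it stood at 379, 196.2, 331, 231 and 227 CPM. The spiral colon of letter C, a library outside the marker rule, was the single value above 500 CPM among these 15.

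In super-shedders F to J miR-142-3p stood at 839, 838, 699, 309 and 159 CPM in the duodenum. It stood at 796, 1487, 940, 39.2 and 573 CPM in the proximal jejunum. In the distal jejunum it stood at 994, 1438, 354, 23.3 and 988 CPM. Letter I was far below the rest in both jejunal groups, and letter H was second lowest in the distal jejunum.

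In the large intestine of super-shedders miR-142-3p stood at 618, 491, 590, 43.7 and 454 CPM in the cecum. It stood at 306, 701, 772, 904 and 224 CPM in the spiral colon. In the descending colon it stood at 182, 1203, 905, 41.0 and 371 CPM. Letter I thus held the highest of these values in the spiral colon and the lowest in the cecum and the descending colon.

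Averaged over statuses, miR-142-3p was lower in the large intestine, with a log2 fold change of -0.78 ± 0.27 (95% interval -1.33 to -0.24, adjusted p = 0.0260). In that comparison 15.3% of all miRNAs were lower and 11.8% higher. The estimates of the others were below 0 without passing, namely -0.53 ± 0.23 for miR-142-5p (adjusted p = 0.0716), -0.59 ± 0.31 for miR-223 (adjusted p = 0.143) and -0.28 ± 0.26 for miR-150 (adjusted p = 0.437). The median of the 4 changes was -0.56, beside -0.01 for all miRNAs tested. With libraries scaled to total counts, the median over all miRNAs shifted to -0.22, and miR-142-5p also passed, beside 67 miRNAs called lower and 17 higher of the 288.

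Without letter I, whose jejunal libraries hold little of all 4, 3 of the 4 miRNAs were lower in the large intestine beside 24.1% of all miRNAs, with changes of -0.87 ± 0.19 for miR-142-3p, -0.61 ± 0.16 for miR-142-5p and -0.76 ± 0.25 for miR-223 (adjusted p = 0.000219, 0.00163 and 0.0113). The call of miR-142-3p was lost without letter D, without letter E or without letter F. Without the 13 libraries outside the marker rule, all 4 were lower beside 27.5% of all miRNAs, at -1.31 ± 0.17 for miR-142-3p, -0.93 ± 0.15 for miR-142-5p, -0.92 ± 0.20 for miR-150 and -1.19 ± 0.25 for miR-223. Their adjusted p then ran from 7.23e-08 to 0.000226.

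**Figure D2:**
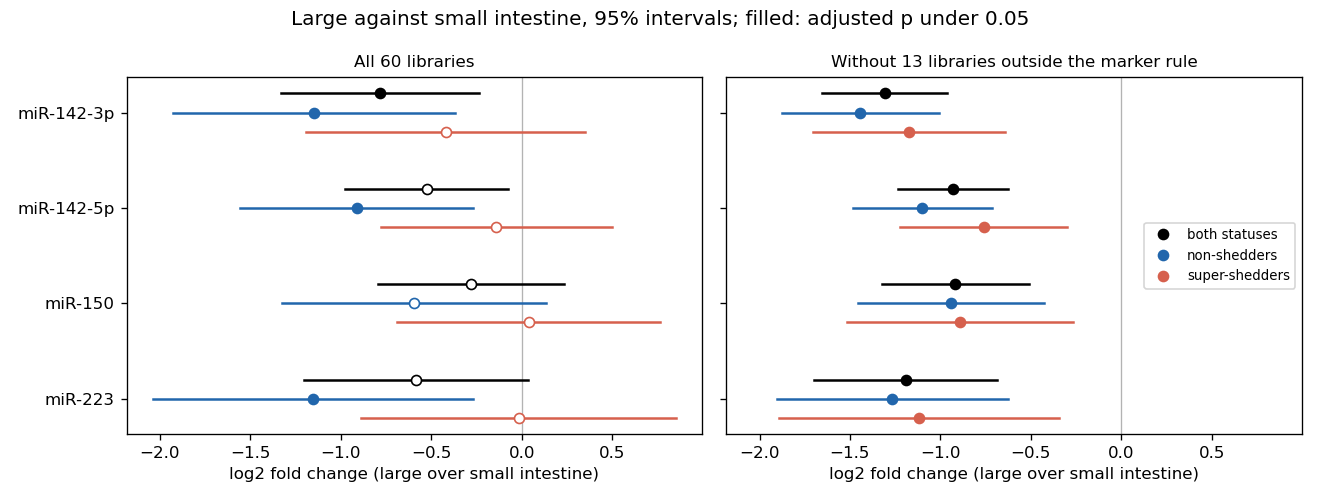
Fitted log2 fold change of the large over the small intestine with its 95% interval, for both statuses together and for each status, in all 60 libraries (left) and without the 13 libraries outside the marker rule (right); filled points have an adjusted p under 0.05. On the left miR-142-3p stands at -0.78 and miR-150 at -0.28 for both statuses together, and on the right all 4 miRNAs lie between -1.31 and -0.92.

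Within non-shedders, 3 of the 4 miRNAs were lower in the large intestine, beside 10.4% of all miRNAs. The changes were -1.15 ± 0.39 for miR-142-3p, -0.91 ± 0.32 for miR-142-5p and -1.15 ± 0.44 for miR-223 (adjusted p = 0.0246, 0.0287 and 0.0494), with miR-150 at -0.60 ± 0.36 (adjusted p = 0.216). All of these calls were lost without letter A, without letter B, without letter D or without letter E, with counts of 0 in each case. Each miRNA was lower in the large intestine in 5 of 5 non-shedder letters.

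Within super-shedders 0 of 4 passed, beside 0.347% of all miRNAs called lower. The changes there were -0.42 ± 0.38 for miR-142-3p, -0.14 ± 0.32 for miR-142-5p, 0.04 ± 0.36 for miR-150 and -0.02 ± 0.43 for miR-223. Each miRNA was lower in the large intestine in 3 of 5 super-shedder letters, F, G and J, and higher in H and I. The contrast between the statuses was tested directly, and 0 of the 4 passed, as did 0% of all miRNAs. That contrast was 0.73 ± 0.54 for miR-142-3p, 0.77 ± 0.45 for miR-142-5p, 0.64 ± 0.51 for miR-150 and 1.14 ± 0.62 for miR-223, with adjusted p from 0.463 to 0.570. Unadjusted, its p was 0.0715 for miR-223 and 0.0918 for miR-142-5p.

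Letters H and I hold 9 of the 13 libraries outside the marker rule. Without the 13, all 4 miRNAs were lower in the large intestine in each status, beside 21% of all miRNAs called lower in non-shedders and 15.9% in super-shedders. In super-shedders the changes were then -1.17 ± 0.26 for miR-142-3p, -0.76 ± 0.23 for miR-142-5p, -0.89 ± 0.31 for miR-150 and -1.12 ± 0.38 for miR-223. The contrast between statuses shrank to between 0.05 and 0.34, with an adjusted p of 0.994 for each miRNA.

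In 6 cecal and colonic libraries miR-196b was under 50 CPM. Over these 6, miR-142-5p had a median of 8086 CPM and a range of 855 to 9473. The low value was the cecum of letter I. In the 23 large-intestine libraries that met the rule miR-142-5p had a median of 3173 CPM and a range of 1383 to 7444, and in the 24 small-intestine libraries that met it a median of 6374 CPM and a range of 1961 to 13669. miR-150 showed the same order, with medians of 751, 230.1 and 419 CPM. Since miR-196b chose these groups and no test was run on them, the values are a description.

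Other cell types' miRNAs also differed between the parts of the gut. In non-shedders the summed share of the 9 epithelial miRNAs was 13.8% to 33.6% of counts in the small intestine and 1.68% to 17.4% in the large intestine. In super-shedders the ranges were 0.154% to 35.6% and 0.284% to 28.8%. The 5 smooth muscle miRNAs took 18.2% to 60.5% and 11.7% to 70.8% in non-shedders, and 8.41% to 59.6% and 21.7% to 69.5% in super-shedders. By mean over the 60 libraries, miR-192 at 96468 CPM made up most of the epithelial sum, ahead of miR-215 at 15752 CPM. miR-143 at 516399 CPM made up nearly all of the muscle sum, ahead of miR-145 at 2057 CPM. The sums therefore follow these single miRNAs more than the whole lists. The part of these miRNAs in the result was not tested.

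The other leukocyte miRNAs on the list number 8 and were all tested. Against the small intestine, 2 of them were lower in the large intestine and 0 higher, with a list median of -0.05 on the log2 scale. miR-146a, a brake on inflammatory signalling through TRAF6 and IRAK1, was lower, at -1.05 ± 0.22 (adjusted p = 0.000309). miR-155, induced in activated lymphocytes and macrophages, was lower, at -0.55 ± 0.19 (adjusted p = 0.0250). Without the 13 libraries 4 of the 8 were lower, adding miR-146b at -1.02 ± 0.24 and miR-342 at -0.37 ± 0.11, while the 4 miR-181 forms stayed between -0.10 and 0.28. The summed level of the 8 was 5481 to 25531 CPM in the small and 7810 to 13845 CPM in the large intestine of non-shedders. In super-shedders it was 5561 to 23726 CPM and 7441 to 18457 CPM. By mean over the 60 libraries, miR-181a at 8346 CPM made up most of this sum, ahead of miR-146a at 1274 CPM.

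Of the epithelial list, miR-215 was lower in the large intestine, at -2.03 ± 0.40 (adjusted p = 0.000120), and miR-429, of the miR-200 family that maintains epithelial identity, was higher by 0.78 ± 0.28 (adjusted p = 0.0337). Of the muscle list, miR-133a was higher by 0.94 ± 0.31 (adjusted p = 0.0189). Of the 5 endothelial and stromal miRNAs, miR-199a-3p was higher by 0.44 ± 0.11 (adjusted p = 0.00281). Of the 3 erythroid miRNAs, 0 passed between large and small intestine. Erythroid miRNAs mark red cells left in tissue, and their list median was 0.20 in all libraries and -0.09 without the 13, with 0 of 3 past the threshold in either.

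The muscle, epithelial and stromal lists gave more calls without the 13 libraries. Of the 5 smooth muscle miRNAs 4 were higher in the large intestine, with a list median of 1.09. Of the 9 epithelial miRNAs 3 were higher and 3 lower, with a list median of -0.06. The lower ones were miR-192 at -0.73 ± 0.17, miR-194 at -0.67 ± 0.17 and miR-215 at -2.71 ± 0.31. The higher ones were miR-375 at 0.92 ± 0.20, miR-429 at 0.81 ± 0.19 and miR-200b at 0.59 ± 0.21. Of the 5 endothelial and stromal miRNAs 2 were higher. The part of these cell types in the lower levels of miR-142, miR-150 and miR-223 was not tested.

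The study's own question was the difference between shedding statuses, and within regions 0 of the 4 miRNAs passed in any of the 6. Of all miRNAs tested, 0.418% passed in duodenum, 0% in proximal jejunum, 0.412% in distal jejunum, 0% in cecum, 0.383% in spiral colon and 0% in descending colon. With all libraries kept, the ranges of super-shedders and non-shedders overlapped in 24 of 24 combinations of miRNA and region. Of all miRNAs, the ranges did not overlap for 0.308% in duodenum, 2.16% in proximal jejunum, 1.81% in distal jejunum, 0.906% in cecum, 1.18% in spiral colon and 0% in descending colon. The 95% intervals were wide, and for miR-142-3p they ran from -0.69 to 1.30 in duodenum and from -1.79 to 1.25 in distal jejunum.

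At an unadjusted p, 2 of these 24 tests were under 0.05, as were 6.63% of the 1509 tests of all miRNAs in the 6 regions. The first was miR-150 in the proximal jejunum, at 472, 339, 477, 895 and 1078 CPM in non-shedders A to E and 395, 293, 329, 31.5 and 282 CPM in super-shedders F to J. Only letter F among the super-shedders exceeded the lowest non-shedder, letter B. The libraries of letters B and I lie outside the marker rule here. Without them the ranges were 472 to 1078 CPM in non-shedders and 282 to 395 CPM in super-shedders, without overlap. The overlap over all miRNAs was not counted in that setting. The change was -1.26 ± 0.55 on the log2 scale (unadjusted p = 0.0437, adjusted p = 0.468). Without letter I it was -0.98 ± 0.32 (adjusted p = 0.324), and without the libraries outside the marker rule -1.15 ± 0.30 (unadjusted p = 0.00318, adjusted p = 0.363). In the latter setting miR-150 had the opposite sign in the distal jejunum, at 0.80 ± 0.29 (edgeR, unadjusted p = 0.0205, adjusted p = 0.455). There miR-142-3p in the cecum stood at 0.84 ± 0.31 (edgeR, unadjusted p = 0.0212, adjusted p = 0.359). Unadjusted p was under 0.05 for 14 of 244 miRNAs in that distal jejunum test and 27 of 273 in that of the cecum.

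The second was miR-223 in the spiral colon, at 62.1, 43.0, 88.0, 9.04 and 24.8 CPM in non-shedders A to E and 44.7, 109, 212, 410.5 and 51.6 CPM in super-shedders F to J. The 3 highest values were super-shedders G, H and I, and letters F and J lay among the non-shedders. The change was 1.86 ± 0.71 (unadjusted p = 0.0231, adjusted p = 0.502). Without the libraries outside the marker rule, which include H and I, it was 0.96 ± 0.56 (unadjusted p = 0.118). Without letter I alone it was 1.23 ± 0.61.

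When the counts of the 6 regions were summed for each letter, the differences between super-shedders and non-shedders were 0.05 ± 0.34 for miR-142-3p, 0.12 ± 0.30 for miR-142-5p, -0.01 ± 0.36 for miR-150 and 0.39 ± 0.28 for miR-223, with adjusted p of 0.995, 0.928, 0.995 and 0.726. None of the 4 passed, beside 0.277% of all miRNAs. The 95% intervals reached from -0.71 to 0.80 for miR-142-3p and from -0.22 to 1.01 for miR-223. For these sums a change of 1 in log2 lies outside the first interval and just inside the second. The sums add raw counts, so deep libraries weigh most, such as the descending colon of letters A and J (19346766 and 13942283 counts). With equal weight per library, in limma on letter means, miR-142-3p stood at -0.21 ± 0.52. Without the 13 libraries miR-223 stood at 0.77 ± 0.27 (edgeR, unadjusted p = 0.0157, adjusted p = 0.343). Those sums hold no library of letter I and lack some regions of letters B, C, G and H. Status and region are therefore mixed in that value. The test of a shedding difference that varies between regions gave 0 of 4, beside 0.347% of all, with an adjusted p of 0.992 for each. Of the 8 other leukocyte miRNAs, 0 passed in any shedding comparison.

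**Figure D3:**
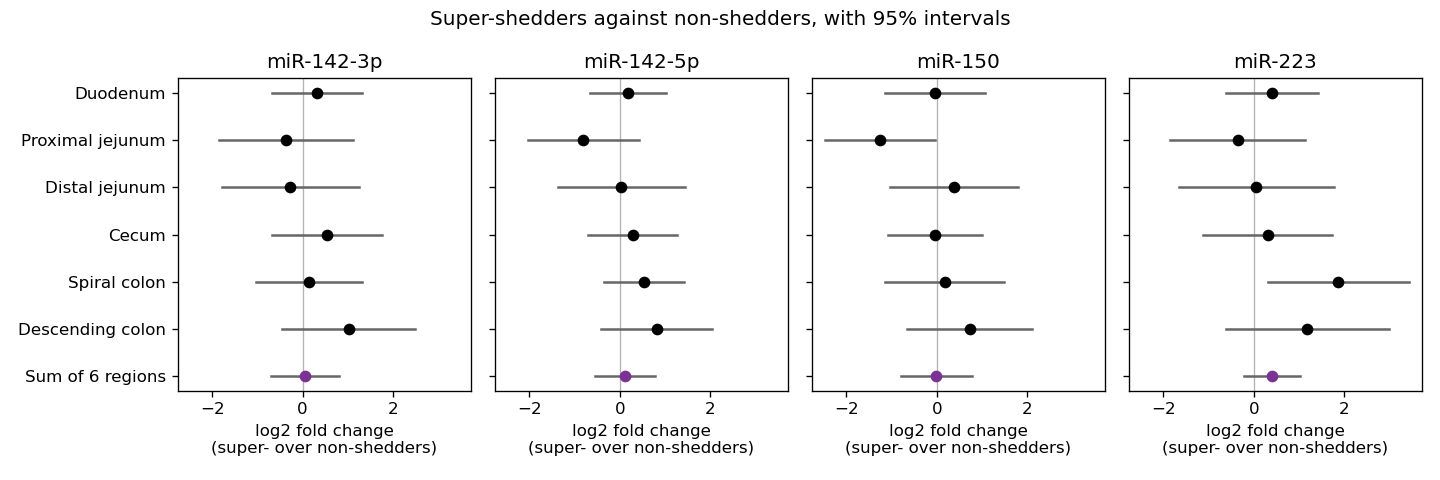
Fitted log2 fold change of super-shedders over non-shedders with its 95% interval, for each miRNA in each region and, in purple, in counts summed over the 6 regions of a letter. The interval leaves 0 for miR-150 in the proximal jejunum (-1.26) and for miR-223 in the spiral colon (1.86), and all 4 intervals of the sums include 0.

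The sums of squares of each miRNA over the 60 libraries were split between 10 letters and 6 regions. The letter accounted for 42.9% of the log2 variance of miR-142-3p, 40.7% of miR-142-5p, 35.1% of miR-150 and 31.4% of miR-223, and the region for 13.2%, 9.25%, 7.57% and 15.3%. The medians over 224 miRNAs were 26.6% for the letter and 13.04% for the region. With 10 letters and 6 regions, the letter takes a larger share by its number of groups alone, and it also carries the shedding status. The split keeps the 13 libraries outside the marker rule and is not given without them. The shares of letter and region are therefore not weighed against each other here. By mean over its 6 libraries, miR-142-3p ran from 227 CPM in letter I to 1026 CPM in letter G. For miR-150 the lowest and highest letters were I with 172 CPM and H with 566 CPM.

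Letter I itself was uneven. Its proximal jejunum, distal jejunum and descending colon held 488, 348 and 767 CPM of miR-142-5p, the 3 lowest of the 60 libraries. In the same 3 libraries the epithelial miRNAs took 0.154%, 0.253% and 0.284% of counts, the 3 lowest shares, and the smooth muscle miRNAs took 59.6%, 56.3% and 33.3%. Its spiral colon held 8257 CPM of miR-142-5p and 410.5 CPM of miR-223, the highest miR-223 of all libraries, with epithelial miRNAs at 18.6%. The part of tissue composition in these values was not tested.

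**Figure D4:**
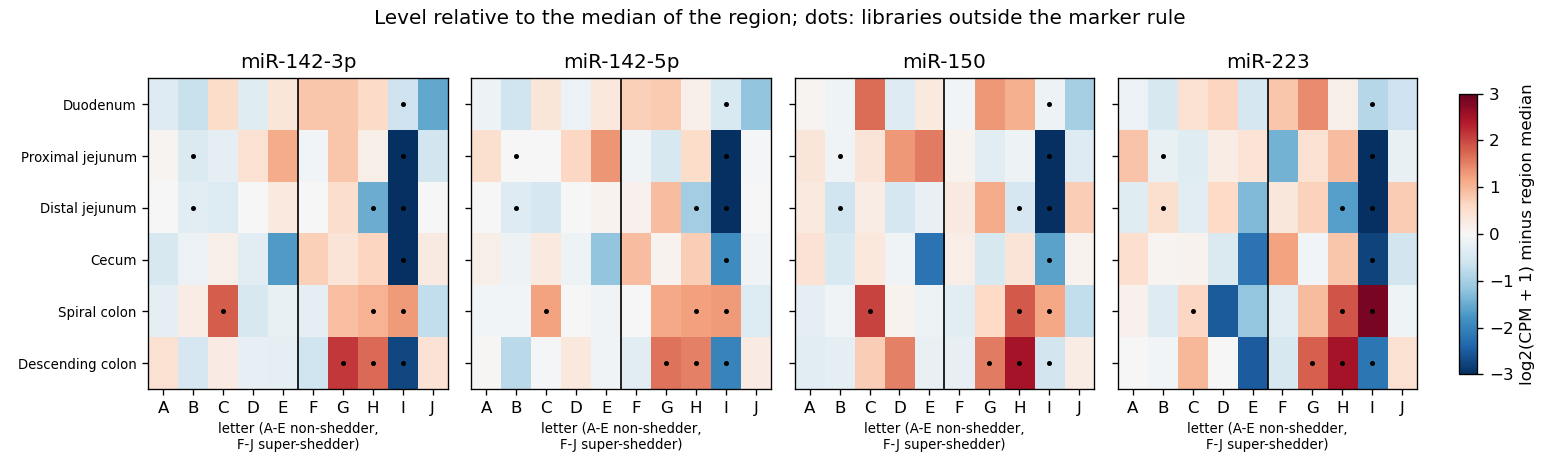
Level of each miRNA in every library relative to the median of its region, as a difference in log2(CPM + 1) on a colour scale that ends at 3 in either direction; columns are letters, rows are regions and dots mark the 13 libraries outside the marker rule. The 4 panels share most of their pattern, with letter I low in the jejunum and the descending colon and letters G and H high in the descending colon.

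Over the 10 letter means of log2 level, the 6 pairs of these miRNAs were correlated with Pearson's r from 0.845 to 0.988 and Spearman's rho from 0.770 to 0.927 (permutation test, adjusted p of r from 0.000180 to 0.00420 and of rho up to 0.0115, over 6 pairs). The values share libraries and scaling. The arms of miR-142, cut from 1 hairpin, had the highest r, 0.988, and kept 0.912 without letters G and I, the farthest from the median. Without those 2 letters, miR-142-3p and miR-150 had an r of 0.868, and miR-142-5p and miR-150 an r of 0.789. miR-223 held less well. Without the 2 letters its r fell to 0.513 with miR-142-3p (exact permutation p = 0.201) and 0.430 with miR-142-5p (exact permutation p = 0.282). Leaving out the letters farthest from the median narrows the range and can lower r by itself. Spearman's rho was then 0.619 and 0.643, from 0.806 and 0.818 over the 10 letters. With miR-150, and without letters C and I, Pearson's r of miR-223 was 0.727 (exact permutation p = 0.0392) and Spearman's rho was 0.619.

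After the 12 group means were removed, each of the 4 was compared with 223 others over the 60 libraries, as a description across libraries that share depth and composition. The closest to miR-142-3p were miR-142-5p (r = 0.964), miR-425-5p (0.893), miR-1388-3p (0.871), miR-150 (0.870) and miR-223 (0.861). The closest to miR-142-5p after its own 3p arm were miR-150 (0.895), miR-1388-3p (0.886), miR-425-5p (0.863) and miR-1388-5p (0.853).

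For miR-150 the closest were miR-142-5p (0.895), miR-142-3p (0.870), miR-425-5p (0.800), miR-223 (0.790) and miR-17-5p (0.782). For miR-223 they were miR-142-3p (0.861), miR-142-5p (0.852), miR-150 (0.790), miR-21-3p (0.780) and miR-2336 (0.760). Each of the 4 therefore had the other 3 among its 5 closest, except that miR-223 was not among the 5 closest to miR-142-5p. Without letter I the r of miR-142-3p with miR-223 was 0.732 and with miR-425-5p 0.777. Some epithelial miRNAs, looked up after their values were seen, also ranked high. With miR-142-3p the r was 0.798 for miR-192 and 0.795 for miR-194, above 0.754 for miR-146a and 0.722 for miR-342 of the leukocyte list. These were 0.494, 0.505, 0.721 and 0.664 without the 13 libraries. The rest of the epithelial list ran from 0.741 for miR-215 to 0.452 for miR-375. The rest of the leukocyte list ran from 0.505 for miR-155 to -0.563 for miR-181d. Without the 13 libraries these 4 stood at 0.399, -0.039, 0.471 and -0.465. With miR-142-5p, miR-194 stood at rank 8 of 223, at 0.835. At the other end of the scale stood miR-125b for miR-142-3p (r = -0.827), miR-127 for miR-142-5p (-0.861), miR-27b for miR-150 (-0.771) and miR-204 for miR-223 (-0.713).

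The 2 arms of miR-142 allow a measure that needs no scaling between libraries. The ratio of 5p to 3p counts had a median of 9.13 over the 60 libraries and ran from 2.63 to 19.6. The 5p arm was thus the more counted in 60 of 60 libraries. The lowest ratio belonged to the proximal jejunum of letter G and the highest to the cecum of letter I. By region the median ratio was 9.58 in duodenum, 8.29 in proximal jejunum, 7.12 in distal jejunum, 9.26 in cecum, 10.3 in spiral colon and 9.75 in descending colon.

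On the log2 scale of 3p over 5p, the large intestine minus the small intestine had a mean of -0.287 over the 10 letters (SD 0.256, lower in 8 of 10 letters, exact two-sided sign-flip permutation p = 0.0117). Without the 13 libraries it was -0.291 over the 9 letters left (lower in 7 of 9, exact permutation p = 0.0391). The 3p arm was therefore relatively scarcer in the large intestine. Its larger change in the count test comes from the same counts and is not a second result. The arms of other hairpins are not set beside it here. In the proximal jejunum of letter G, 11 of 13 arm pairs with both arms at 10 CPM or more were shifted toward 3p against the other libraries. The pair of miR-142 is counted among them. The median shift was 0.671 in log2, and that of miR-142 was the largest, at 1.70. Since this library was picked for its lowest miR-142 ratio, that rank follows from the choice.

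Between statuses the arm ratio was tested in each region. In the distal jejunum the 5p to 3p ratio was 7.15, 6.75, 6.66, 7.09 and 6.30 in non-shedders A to E and 7.72, 9.26, 9.70, 14.9 and 7.10 in super-shedders F to J. Letter J alone of the super-shedders fell below the highest non-shedder. The difference in log2 of 3p over 5p was -0.470 (exact permutation p = 0.0159, adjusted over 6 regions p = 0.0952), which did not pass. Without letter J it was -0.571 (exact permutation p = 0.00794, adjusted p = 0.0476), under the threshold, and without letter I -0.305 (exact permutation, adjusted p = 0.0952). Letters H and I, with the highest ratios, lie outside the marker rule here. Without the 3 libraries of this region outside it, the difference was -0.233 in 4 non-shedders and 3 super-shedders (exact permutation p = 0.0571, adjusted p = 0.343), where the smallest p the design allows is 0.0286. The other 5 regions had differences from -0.245 to 0.206, each with an adjusted p of 0.754.

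**Figure D5:**
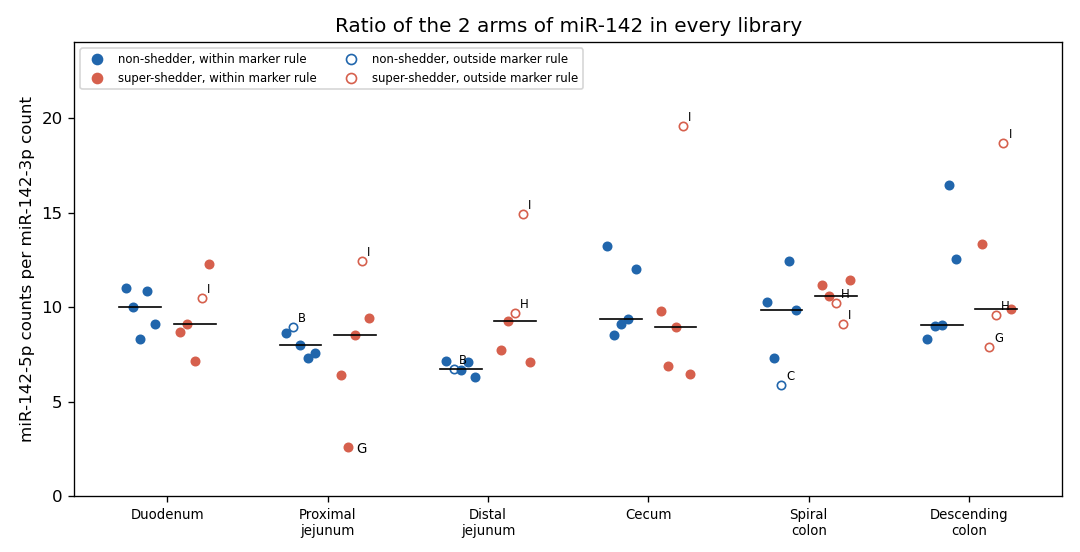
Counts of miR-142-5p per count of miR-142-3p in every library, by region and status; bars are medians of 5 and open lettered points are libraries outside the marker rule. The proximal jejunum of letter G is lowest at 2.63 and the cecum of letter I highest at 19.6.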

How the data were processed

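Small RNA libraries were made with the mirVana and TruSeq small RNA kits, per the labels' protocols, which name rectal tissue for all libraries; the 6 tissue labels were used here. The deposited table holds the authors' raw read counts of 608 mature miRNAs in 60 libraries. The submitters' processing notes list Bowtie and edgeR without a version or role. The sources used here state no genome build or annotation and do not say how reads matching several miRNAs were counted, so no coordinates are printed.

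Depth was 535373 to 19346766 counts. In R 4.3.3, edgeR 4.0.16 ran a two-sided quasi-likelihood F test after TMM scaling and removal of low miRNAs by filterByExpr at a minimum count of 10. Its p-values were adjusted by Benjamini-Hochberg over every miRNA tested, at a threshold of 0.05. Shedding was tested per region (10 libraries each) and in sums per letter. Regions were tested in 1 model of 12 group means, which treats libraries of a letter as independent. Each standard error is the log2 change divided by the root of its F. The arm ratio used a pseudocount of 0.5 counts and exact permutation tests in scipy 1.17.1. The procedure was tested on simulated counts.

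The 4 miRNAs, the cell type lists and the marker rule were chosen with earlier results of these data known. Named miRNAs are the 4, the 5 closest to each by correlation (mean of at least 10 CPM), and at most 4 of a cell type list past the threshold. The list members named without the 13 libraries outside the marker rule, beyond those, were picked after their values were seen. Alternatives were RLE size factors, total counts, no filter, a filter on CPM (above 5, in 5 or more libraries), robust fitting, each letter left out, DESeq2 1.42.0, 1 fit of all libraries, the letter as a block, limma 3.58.1 on letter means and omission of the 13 libraries. Omission of the 13 from regional levels and from the arm ratio, and the alternatives within each status, were added after the data were seen. No replicate was a copy of another, since over 120 pairs chi-square divided by its degrees of freedom was 26.9 to 7550.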

Additional observations from a re-analysis of the deposited data

Results flagged for a closer look

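Of 60 groups of 5 libraries examined, 6 held a library far from the other 4 by Dixon's criterion at 95%, which chance meets in about 1 of 20 groups. Letter C accounts for 4 of them. In its spiral colon miR-142-3p stood at 1318 CPM against 269 to 434 CPM in the other non-shedders. In the same library miR-142-5p stood at 7789 CPM against 3163 to 3349, and miR-150 at 1047 CPM against 215 to 276. That library had 0.564 CPM of miR-196b, where the other 4 had 550 to 872. In the duodenum of letter C, which met the marker rule, miR-150 stood at 677 CPM against 161 to 262.

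Letter I accounts for the other 2. In its cecum miR-142-3p stood at 43.7 CPM against 454 to 618 in the other super-shedders, and the ratio of miR-142-5p to miR-142-3p was 19.6 against 6.49 to 9.79. That library had 0.794 CPM of miR-196b.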

How the results depend on the processing

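The edgeR calls between statuses did not change under any alternative, with 0 of the 4 miRNAs past the threshold in each region, in the sums and in the test of a shedding difference that varies between regions. Among 912 values of single miRNAs under an alternative, 65 changed sign, of which 1 was past the threshold. miR-142-3p was lower in the large intestine under 17 of 17 alternatives and passed in 13; the call was lost with no filter and without letter D, E or F. The cause of the changes below was not tested.

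Without the 13 libraries, 4 of 4 passed for any region, for large against small intestine and for the same within super-shedders, and the pair counts were 9 (miR-142-3p), 8 (miR-142-5p), 6 (miR-150) and 7 (miR-223). The shedding differences of miR-150 became 0.087 in duodenum, 0.18 in cecum, -0.44 in descending colon and 0.14 in the sum of the libraries left. That of miR-142-3p in distal jejunum became 0.22 and that of miR-223 in descending colon -0.0030. The large against small change of miR-150 in super-shedders became -0.89 (adjusted p = 0.0252). With total counts as the scale, 2 passed for large against small (29.2% of all miRNAs) and 0 pairs for miR-223, and miR-150 stood at 0.16 in duodenum, 0.12 in cecum, 0.12 in the sum and -0.087 for large against small in super-shedders. With no filter, 0 passed for large against small (10.8% of all), 1 for the same in non-shedders (11.1%) and 0 pairs for miR-223, whose super-shedder change was 0.012. With RLE size factors miR-150 stood at 0.017 in the sum and -0.0020 for large against small in super-shedders, with the CPM filter at -0.0065 in the latter, and with DESeq2 at 0.017 in the sum. In 1 fit of all libraries, miR-142-5p in distal jejunum was -0.016 and miR-150 in cecum 0.033. With limma on letter means, the summed differences were -0.21 for miR-142-3p and -0.15 for miR-142-5p.

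The letters were checked as animals by correlating libraries of 1 letter after removal of group means. The mean r was 0.163 over 150 pairs, of which 95 were above 0.1, and -0.0133 between letters. For 14 of 60 libraries the closest library shared the letter. With the letter as a replicate block, 1 of 4 passed for any region (31.6% of all), the pair counts were 2 for miR-142-3p and 2 for miR-223 (7.36% of all tests), and miR-223 in super-shedders stood at 0.20 for large against small.

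Leaving out each letter in turn gave counts of 0 to 3 for any region, 0 to 3 for large against small and 0 to 3 for the same in non-shedders, where 0 came without A, B, D or E. For any region 3 came without I and 1 without C, and for large against small 2 came without C or H and 3 without I. Pair counts were 0 to 5 (miR-142-3p), 0 to 4 (miR-142-5p), 0 to 1 (miR-150) and 0 to 4 (miR-223). Shedding differences of miR-150 were -0.35 to 0.47 in duodenum, -0.025 to 0.67 in distal jejunum, -0.28 to 0.20 in cecum, -0.25 to 0.94 in spiral colon and -0.25 to 0.22 in the sum. Those of miR-142-3p were -0.70 to 0.0091 in distal jejunum, -0.047 to 0.82 in spiral colon and -0.21 to 0.29 in the sum. For miR-142-5p they were -0.0032 to 0.44 in duodenum, -0.49 to 0.31 in distal jejunum and -0.079 to 0.34 in the sum, and for miR-223 -0.26 to 0.33 in distal jejunum and -0.13 to 0.58 in cecum. In super-shedders, large against small ran from -0.34 to 0.23 for miR-150 and from -0.35 to 0.21 for miR-223. The status difference of the arm ratio (log2 of 3p over 5p) ran from -0.036 to 0.160 in duodenum, -0.148 to 0.411 in proximal jejunum, -0.571 to -0.305 in distal jejunum (adjusted p = 0.0476 by exact permutation without J), -0.015 to 0.382 in cecum and -0.236 to 0.097 in descending colon.

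Depth limits miR-223 most, with as few as 7 counts in a library.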
